A study of Mus musculus with 24 samples.

Results

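The matricellular and CCN genes described here were 10 genes listed by symbol, Postn, Tnc, Tnn, Sparc, Thbs1, Thbs2, Ccn1, Ccn2, Ccn4 and Ccn5, out of 56748 genes in a table of read counts from the dental mesenchyme of mouse mandibular first molars. All 10 were found in the table, and the list was set by symbol with no threshold on measured values. It was chosen with earlier results of these data known, which limits each comparison of members called with the share of all genes. The mesenchyme came from ICR embryos at the cap stage (embryonic day 13) or the bell stage (embryonic day 15), and the labels name no mutation or transgene in any group. At each stage it was sequenced undivided (Cap-W and Bell-W) or after the tooth germ had been divided with a needle into a lingual part (Cap-L and Bell-L) and a buccal part (Cap-B and Bell-B). The cap-stage parts were also sequenced once they had been kept in culture for 2 days (Cap-L+2D for lingual, Cap-B+2D for buccal). Each of the 8 groups held 3 libraries, 24 in all, made from pooled embryos, and a part is a tissue fragment defined by the cut rather than by a cell marker.

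Matricellular proteins are secreted into the extracellular matrix, where they tune how cells adhere to and signal through collagen and fibronectin rather than building the scaffold themselves. The tenascins and periostin are classical products of the mesenchyme under the dental epithelium, and periostin is later a hallmark of the periodontal ligament. The CCN proteins are matrix-bound signalling proteins that bind integrins, and Ccn1 and Ccn2 are known as quickly induced genes that respond to serum, to stretch and to the YAP and TEAD transcription factors.

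The libraries held between 20581720 and 39266497 counted reads, with a median of 27677163, so that 3 reads corresponded to at most 0.146 CPM (counts per 1000000). Nothing in the sources used here says whether the 3 libraries of a group came from separate litters. The study's methods name sequencing in triplicate and also 2 biological replicates, without relating these to the 3 libraries. The p-values therefore measure only the spread between these libraries, which may be technical. That spread was small in the divided and cultured groups and wider in Cap-W and Bell-W, where single libraries stood apart. Reads assigned to Rn18s-rs5, an 18S ribosomal RNA gene, made up 5.39% of Cap-W replicate 1, against 0.264% and 0.304% in replicates 2 and 3, and the chi-square per gene was 212 and 162 against those libraries but 9.88 between them. In Bell-W it took 1.30% and 1.43% in replicates 1 and 2 and 0.223% in replicate 3, with a chi-square per gene of 16.1 between the first 2 and of 79.3 and 70.3 against the third. In the other 18 libraries the share of Rn18s-rs5 was at most 0.298%. The 9 markers of dental mesenchyme, Msx1 and Pax9 among them, were over the limit of 3 reads in every group, with a summed level between 2051 CPM in a Bell-W library and 3847 CPM in a Cap-W library. The 7 skeletal muscle markers were also over that limit in most groups, and they differed between the sides. Their summed level was 20.4 to 21.2 CPM in Cap-L and 219.9 to 241 CPM in Cap-B, 112 to 121 CPM in Bell-L and 898 to 929 CPM in Bell-B, and 302 to 323 CPM in Cap-L+2D and 3865 to 4029 CPM in Cap-B+2D. The part of muscle cells in the differences between the sides below was not tested.

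The sequence upstream of Ccn1 is shown because this gene is widely used as a read-out of TEAD factors and of serum response. The line gives the 250 bases before the start of its canonical transcript in GENCODE release M39 on GRCm39, read 5′ to 3′ on the strand of the gene. Capitals mark the letters GGAATG, a TEAD recognition sequence, on either strand.
Ccn1, chr3:145355739-145355988, minus strand: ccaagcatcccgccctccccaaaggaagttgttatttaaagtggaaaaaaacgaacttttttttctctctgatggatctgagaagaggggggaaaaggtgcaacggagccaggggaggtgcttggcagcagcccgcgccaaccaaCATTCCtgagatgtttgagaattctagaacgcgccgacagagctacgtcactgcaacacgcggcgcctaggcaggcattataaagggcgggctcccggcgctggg

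The Ccn1 window held 1 copy of GGAATG, read on the opposite strand at position -105 from the transcript start. Of the 9 member windows read, 2 had a match, Tnn being the other, with 1 copy, and the letters occurred in 12.1% of the 21770 promoter windows of protein-coding genes of the same length. The Ccn1 window also held TATAAA at position -27, a match found in 11.9% of the windows. The AP-1 letters TGANTCA occurred in 1 member, Thbs1, with 2 copies, and in 6.17% of all windows, but the canonical start of Thbs1 in that release lay 383 bases from the start in the study's own annotation. That distance was 3103 bases for Sparc and 191 for Tnc, whose windows had no match to GGAATG or TGANTCA, and at most 31 bases for the other 6 members read. The CArG box, the binding sequence of serum response factor, had no match in the 9 windows and a match in 1.40% of all windows. All letters were searched on both strands. These matches describe letters in a window and were not tested as binding sites.

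Per length of transcript, the 10 genes spanned a wide range. RPKM (CPM per 1000 exon bases) is used where levels of different genes are compared. In Cap-L the highest mean was that of Postn, at 311 ± 8.85 RPKM (SD, n = 3), ahead of Ccn1 at 254 ± 8.67 RPKM and Sparc at 168 ± 4.68 RPKM. In Cap-B it was that of Sparc, at 301 ± 4.86 RPKM, ahead of Ccn1 at 262 ± 4.31 and Postn at 143 ± 0.939 RPKM. Sparc was also the highest of the 10 in Bell-L, Bell-B and both cultured groups, reaching 623 ± 13.8 RPKM in Cap-L+2D, while Postn had the highest mean in both undivided groups. In Bell-W that order lay within the spread of the libraries, with Postn at 259 ± 55.3, Ccn1 at 249 ± 85.1 and Sparc at 243 ± 44.2 RPKM. Ccn5 was the lowest in all 8 groups, with means from 0.121 RPKM in Cap-L to 2.10 RPKM in Cap-L+2D. Across the 8 group means of CPM, Postn varied least, by 2.76-fold between the highest and the lowest group, and Ccn5 and Tnn varied most, by 17.3-fold and 14.5-fold.

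**Figure D1:**
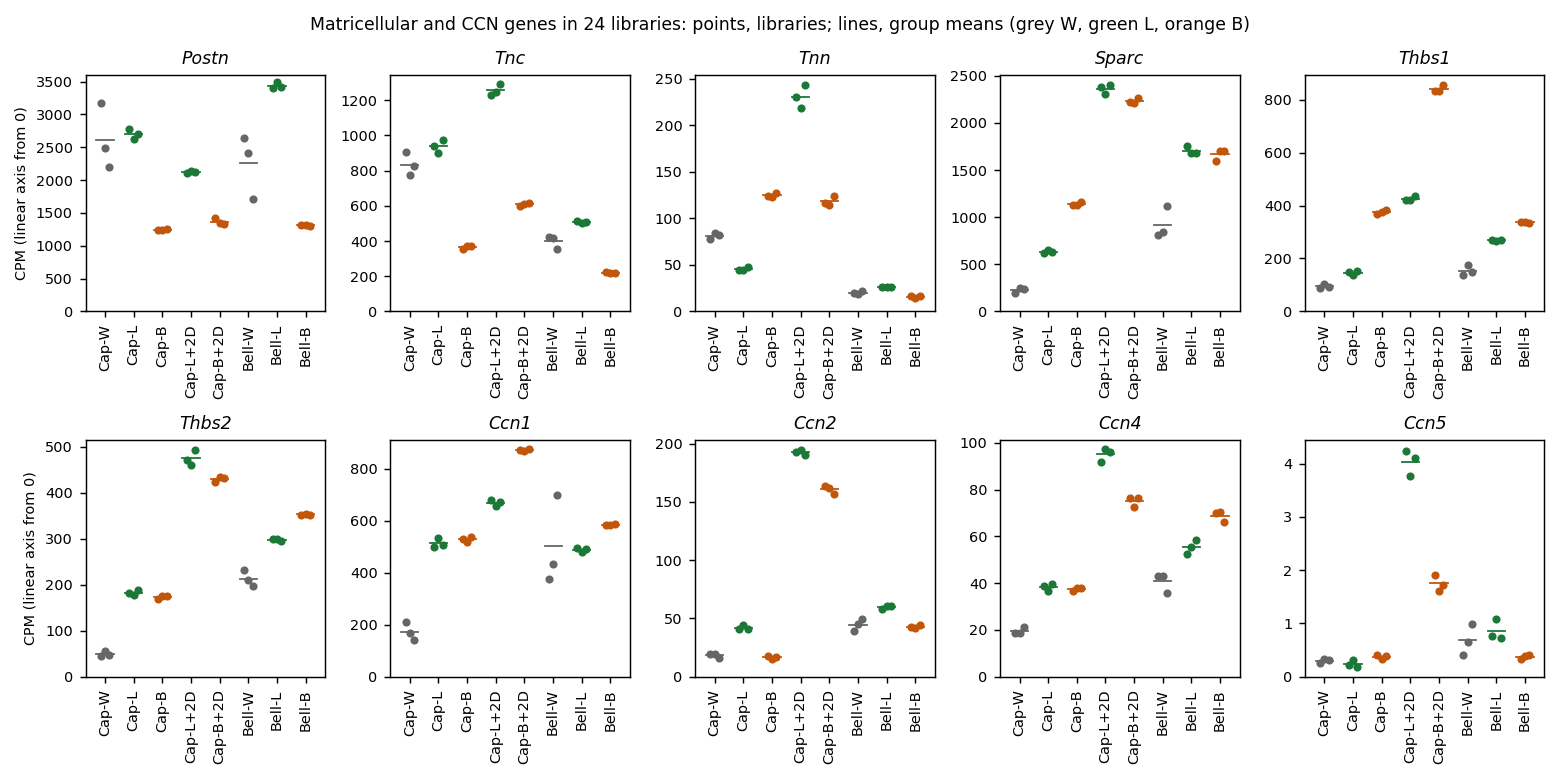
CPM of the 10 genes in each of the 24 libraries on linear axes that start at 0, with points for libraries and lines for group means, grey for undivided, green for lingual and orange for buccal mesenchyme. Postn and Tnc lie higher in green than in orange at the cap stage, at the bell stage and in culture, and 9 of the 10 genes, all but Postn, have their highest group mean in a cultured group.

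The first question was how the lingual and buccal parts differed. A gene was called when its adjusted p was under 0.05 and its absolute log2 fold change was over 0.5. At the cap stage 6 of the 9 members tested were called, 3 higher in the buccal part (Tnn, Thbs1 and Sparc) and 3 higher in the lingual part (Postn, Tnc and Ccn2), against 17.5% of all 20653 genes tested (10.4% higher and 7.10% lower). Ccn5 had too few reads to be tested in this comparison. In the fits below, Ccn5 passed the filter on low counts only with groups where it was higher. Its calls there are therefore not independent of that filter. At the bell stage 4 of 10 were called, all higher in the lingual part (Postn, Tnc, Tnn and Ccn5), against 12.9% of all 21181 genes tested (6.00% higher and 6.88% lower). After culture 5 of 10 were called, 4 higher in the lingual part (Postn, Tnc, Tnn and Ccn5) and 1 higher in the buccal part (Thbs1), against 25.1% of all 21195 genes tested (12.5% higher and 12.5% lower). At the cap stage the median log2 fold change was -0.0054 over the 9 genes tested here and -0.0056 over all genes. For the 10 genes it was -0.26 at the bell stage and -0.31 in culture, negative values being higher in the lingual part. Those medians over all genes were 0.00035 and 0.00091. With 3 libraries against 3, an exact two-sided permutation test on a single value cannot go below 0.1, so the calls rest on the spread that edgeR estimates across all genes. The 3 buccal and 3 lingual libraries did not overlap for 52.2% of all genes at the cap stage, 45.5% at the bell stage and 58.8% in culture, so that groups apart are common here. In bulk tissue, fewer cells of a type and less RNA per cell cannot be told apart.

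Markers of other cell types besides muscle also differed between the sides. At the cap stage 4 of 6 epithelial markers and 5 of 5 osteoblast markers were called lower in the buccal part and 5 of 5 glial markers higher. Over all genes 7.10% were called lower and 10.4% higher. Of the cartilage markers 4 of 4 tested were lower, and of the tendon markers 2 of 3 were lower and 1 higher. Of 6 smooth muscle and pericyte markers 3 were higher and 1 lower. At the bell stage 5 of 6 macrophage markers and 3 of 6 epithelial markers were lower in the buccal part, against 6.88% of all genes. There 3 of 5 glial and 2 of 4 cartilage markers were higher, against 6.00% of all genes. Of the tendon markers 2 of 3 were lower and 1 higher, and 2 of 5 osteoblast markers were lower. In culture the epithelial markers summed to 385 to 419 CPM in Cap-L+2D and 78.6 to 80.2 CPM in Cap-B+2D (5 of 6 lower in the buccal part). The endothelial markers summed to 395 to 400.1 CPM in Cap-L+2D and 164 to 168 CPM in Cap-B+2D (5 of 6 lower), and 6 of 6 osteoblast and 5 of 6 macrophage markers were lower as well. Over all genes 12.5% were called lower and 12.5% higher in culture. Of 4 cartilage markers tested 3 were lower and 1 higher, and of 4 glial markers tested 3 were higher and 1 lower. Of 3 tendon markers 2 were lower and 1 higher, and of 6 smooth muscle and pericyte markers 3 were higher and 2 lower. The part of these cell types in the side differences of the members was not tested.

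Gene positions are given on GRCm39. Postn (chr3:54268530-54298458, plus strand) encodes periostin, which binds collagen and fibronectin. It had 2784, 2630.5 and 2703 CPM in the 3 Cap-L libraries and 1236, 1243 and 1252 CPM in the 3 Cap-B libraries. The lingual libraries were all higher and the groups did not overlap, a 2.14-fold difference (log2 fold change -1.10 ± 0.045 (SE), adjusted p = 5.11e-13, buccal over lingual). At the bell stage it had 3405, 3493 and 3419 CPM in Bell-L and 1323, 1321 and 1295 CPM in Bell-B (log2 fold change -1.39 ± 0.032 (SE), adjusted p = 2.46e-32). In culture it had 2106, 2144 and 2120.5 CPM in Cap-L+2D and 1421, 1341 and 1328 CPM in Cap-B+2D (log2 fold change -0.65 ± 0.035 (SE), adjusted p = 2.17e-14). Postn was thus higher on the lingual side in 3 of 3 settings, by 2.62-fold at the bell stage and by 1.57-fold in culture.

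Tnc (chr4:63878022-63965252, minus strand) encodes tenascin-C, a large hexameric glycoprotein that weakens adhesion to fibronectin. Its level was 938, 902 and 974 CPM in Cap-L against 354, 369 and 370.2 CPM in Cap-B (log2 fold change -1.34 ± 0.047 (SE), adjusted p = 6.61e-14). It was 515, 500.1 and 506 CPM in Bell-L against 221, 218 and 220.1 CPM in Bell-B (log2 fold change -1.21 ± 0.031 (SE), adjusted p = 1.17e-30). After culture it was 1231, 1244 and 1292 CPM in Cap-L+2D against 598, 608 and 618 CPM in Cap-B+2D (log2 fold change -1.05 ± 0.036 (SE), adjusted p = 1.79e-18). The lingual libraries were higher in all 3 settings without overlap, by 2.53-fold, 2.31-fold and 2.08-fold.

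Tnn (chr1:159912599-159981150, minus strand) encodes tenascin-N, also called tenascin-W, a tenascin found around developing bone. It was the member called on different sides in different settings. Cap-L libraries had 44.9, 44.2 and 47.9 CPM and Cap-B libraries 125, 123 and 127 CPM, so that the buccal part was 2.78-fold higher (log2 fold change 1.48 ± 0.048 (SE), adjusted p = 2.01e-14). Bell-L libraries had 26.2, 25.7 and 26.3 CPM and Bell-B libraries 16.1, 14.7 and 16.9 CPM, with the lingual part now 1.64-fold higher (log2 fold change -0.71 ± 0.059 (SE), adjusted p = 1.91e-13). Cap-L+2D libraries had 231, 219 and 243 CPM and Cap-B+2D libraries 116, 115 and 124 CPM, again higher on the lingual side, by 1.96-fold (log2 fold change -0.97 ± 0.043 (SE), adjusted p = 5.07e-16). In none of the 3 settings did the sides overlap. The sign of the side difference also varied among the settings for Sparc, Thbs2 and Ccn4, with calls on 1 side at most, and Ccn5, not tested at the cap stage, was higher in every Cap-B than in every Cap-L library but called higher in the lingual part at the bell stage and in culture.

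Sparc (chr11:55285326-55314009, minus strand) encodes osteonectin, a collagen-binding protein abundant in mineralizing tissues. Cap-L libraries held 622, 655 and 627 CPM and Cap-B libraries 1125, 1134 and 1161 CPM, 1.83-fold higher in the buccal part (log2 fold change 0.87 ± 0.042 (SE), adjusted p = 6.68e-12). Bell-L libraries held 1755, 1681 and 1679.5 CPM and Bell-B libraries 1599, 1702 and 1698 CPM, which overlapped (log2 fold change -0.034 ± 0.032 (SE), adjusted p = 0.459). The values were 2378, 2303 and 2403 CPM in Cap-L+2D and 2220.5, 2216 and 2269 CPM in Cap-B+2D (log2 fold change -0.086 ± 0.034 (SE), adjusted p = 0.0364), a difference under the limit of the call. The side difference of Sparc was called at the cap stage alone among the 3 settings, and the tests of that change stand with the interactions below.

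Thbs1 (chr2:117942357-117957614, plus strand) encodes thrombospondin-1, which binds CD47 and CD36 and can activate latent TGF-β. Its values were 149, 136 and 151 CPM in Cap-L and 369, 377 and 383 CPM in Cap-B, 2.63-fold higher in the buccal part (log2 fold change 1.40 ± 0.05 (SE), adjusted p = 7.6e-14). In Bell-L and Bell-B they were 270.4, 267 and 269.7 CPM and 339, 337 and 334 CPM, again without overlap but under the limit of the call (log2 fold change 0.32 ± 0.03 (SE), adjusted p = 7.41e-12). In culture they were 419, 419.6 and 437 CPM and 834, 834 and 857 CPM, 1.97-fold higher in the buccal part (log2 fold change 0.98 ± 0.036 (SE), adjusted p = 7.5e-18). Its relative Thbs2 (chr17:14885762-14914497, minus strand), which shapes collagen fibrils, was not called between the sides in any of the 3 settings. Thbs2 had 181, 178 and 187 CPM in Cap-L, 169, 175 and 174 CPM in Cap-B, 299.7, 298 and 295 CPM in Bell-L and 351, 354 and 352 CPM in Bell-B. In culture Thbs2 had 471, 461 and 492 CPM on the lingual and 422, 433 and 433 CPM on the buccal side, and its log2 fold changes for buccal over lingual were -0.05 ± 0.044, 0.24 ± 0.03 and -0.15 ± 0.036 at the cap stage, at the bell stage and in culture.

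Among the CCN genes, Ccn2 (chr10:24471340-24474581, plus strand), which encodes connective tissue growth factor, differed most between the fresh cap-stage parts. It had 41.3, 44.6 and 40.6 CPM in Cap-L and 17.8, 15.2 and 16.8 CPM in Cap-B, 2.50-fold higher in the lingual part (log2 fold change -1.32 ± 0.063 (SE), adjusted p = 5.35e-12). In the bell-stage parts it had 58.0, 60.3 and 60.3 CPM in Bell-L and 42.4, 41.4 and 44.2 CPM in Bell-B (log2 fold change -0.48 ± 0.041 (SE), adjusted p = 5.34e-13), just under the limit of the call, and in culture 193, 194 and 189.9 CPM and 164, 162 and 157 CPM (log2 fold change -0.27 ± 0.036 (SE), adjusted p = 8.6e-07). The lingual libraries were the higher ones in all 3 settings. At the bell stage the difference passed the limit in 2 of 6 fits that left out 1 library, at -0.504 without Bell-L replicate 1 and -0.508 without Bell-B replicate 3. Of the exon bases of Ccn2, 24.4% overlap an annotated gene on the other strand, Gm15270, and the counting named no strand, so that reads of the pair cannot be told apart there.

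Ccn1 (chr3:145352731-145355736, minus strand), which encodes the angiogenic protein CYR61, was not called between the sides. It had 501, 533 and 505 CPM in Cap-L and 532, 520.0 and 537 CPM in Cap-B, which overlapped (log2 fold change 0.071 ± 0.042 (SE), adjusted p = 0.194). It was slightly higher on the buccal side, without overlap and under the limit of the call, at the bell stage, with 495, 481 and 491 CPM against 584, 585 and 589 CPM (log2 fold change 0.26 ± 0.03 (SE), adjusted p = 2.24e-09). In culture the values were 678, 657 and 672 CPM and 874, 869.8 and 875 CPM (log2 fold change 0.38 ± 0.034 (SE), adjusted p = 7.01e-10), likewise under it.

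Ccn4 (chr15:66763169-66795050, plus strand), first described as a Wnt-induced gene, was not called between the sides either. Its values were 38.99, 36.5 and 39.6 CPM in Cap-L and 36.7, 37.9 and 37.9 CPM in Cap-B (log2 fold change -0.0054 ± 0.054 (SE), adjusted p = 0.948), 52.5, 55.4 and 58.4 CPM in Bell-L and 69.8, 70.4 and 66.3 CPM in Bell-B (log2 fold change 0.31 ± 0.041 (SE), adjusted p = 3.86e-08), and 91.9, 97.4 and 96.1 CPM in Cap-L+2D and 76.6, 72.6 and 76.3 CPM in Cap-B+2D (log2 fold change -0.35 ± 0.041 (SE), adjusted p = 7.92e-08). The cap-stage parts overlapped, while the bell-stage parts and the cultured parts did not.

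Ccn5 (chr2:163662781-163675066, plus strand), which lacks the C-terminal domain of the other CCN proteins, had few reads in the fresh parts, where 3 reads corresponded to at most 0.139 CPM. It had 0.216, 0.309 and 0.176 CPM in Cap-L, 0.406, 0.334 and 0.394 CPM in Cap-B, 0.763, 1.09 and 0.729 CPM in Bell-L and 0.328, 0.392 and 0.399 CPM in Bell-B. The bell-stage parts did not overlap, with Bell-L higher by 2.30-fold (log2 fold change -1.20 ± 0.31 (SE), adjusted p = 0.00165), on few reads. In culture it had 4.25, 3.77 and 4.10 CPM in Cap-L+2D and 1.91, 1.62 and 1.72 CPM in Cap-B+2D, 2.30-fold higher on the lingual side (log2 fold change -1.20 ± 0.14 (SE), adjusted p = 4.76e-08).

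**Figure D2:**
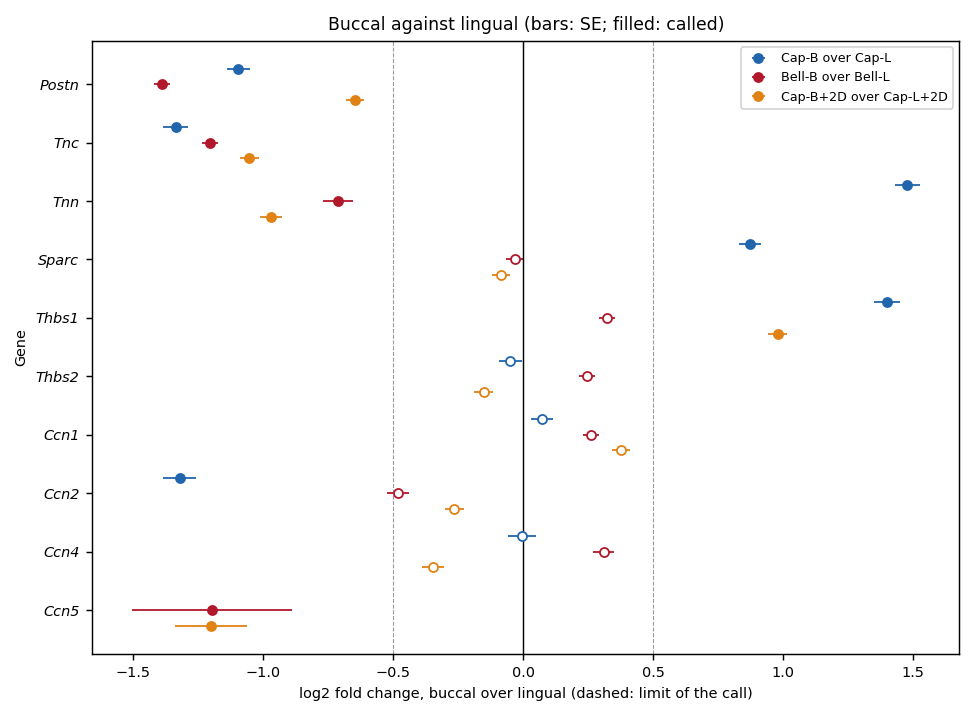
Log2 fold change of buccal over lingual mesenchyme for each gene at the cap stage, at the bell stage and after culture, with bars for the SE, filled points for called genes and dashed lines at an absolute log2 fold change of 0.5. Postn and Tnc lie left of 0 in all 3 comparisons and Tnn crosses from 1.48 at the cap stage to -0.71 at the bell stage and -0.97 in culture.

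Whether the side difference itself changed was tested with interaction terms, called at an adjusted p under 0.05. From the cap to the bell stage it changed for 9 of the 10 members, 4 toward the buccal and 5 toward the lingual side, against 32.5% of all 21931 genes tested (14.5% higher and 18.0% lower), and between fresh and cultured cap-stage parts for 9 of 10, again 4 and 5, against 35.5% of all 22098 genes tested (16.0% higher and 19.5% lower). The change was largest for Tnn, with -2.20 ± 0.072 on the log2 scale for stage (adjusted p = 2.38e-20) and -2.45 ± 0.067 for culture (adjusted p = 1.71e-22), the sign meaning a shift toward the lingual side. Sparc shifted the same way, by -0.91 ± 0.054 and -0.96 ± 0.055. The lingual excess of Ccn2 shrank, by 0.83 ± 0.075 for stage and 1.05 ± 0.072 for culture. Ccn5, which is in both counts, was too low to be tested between Cap-L and Cap-B. It entered the interaction fits through the other groups, so its place in these counts depends on the filter. In the fit of all 24 libraries the interactions of Postn and Ccn1 were not called, with an adjusted p of 0.389 and 0.618 for stage and of 0.0636 and 0.324 for culture in edgeR. The exceptions were Tnc for stage (0.13 ± 0.055, adjusted p = 0.0793), which was called at 0.171 without Cap-L replicate 2, and Thbs2 for culture (-0.11 ± 0.057, adjusted p = 0.157).

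The next comparison was between the stages within each side. In the lingual part 8 of 10 members were called, 6 higher at the bell stage (Sparc, Thbs1, Thbs2, Ccn2, Ccn4 and Ccn5) and 2 lower (Tnc and Tnn), against 20.0% of all 21425 genes tested (14.2% higher and 5.78% lower). In the buccal part 6 of 10 were called, 4 higher (Sparc, Thbs2, Ccn2 and Ccn4) and 2 lower (Tnc and Tnn), against 18.7% of all 21992 genes tested (12.0% higher and 6.73% lower). The 2 stages did not overlap for 56.1% of all genes on the lingual and 55.2% on the buccal side, and in the lingual part the median log2 fold change was 0.53 over the 10 genes tested here and 0.0017 over all genes. In the buccal part the median log2 fold change was 0.11 over the 10 genes tested here and 0.005 over all genes. The macrophage markers rose along with stage, 6 of 6 on the lingual side, from 53.8 to 58.1 CPM in Cap-L to 182 to 186 CPM in Bell-L, and 6 of 6 on the buccal side, from 53.9 to 60.3 CPM in Cap-B to 112 to 116 CPM in Bell-B. The skeletal muscle markers were called higher at the bell stage as well, 7 of 7 on either side, and the part of either list in the changes of the members was not tested. Both tenascins fell on both sides: Tnc fell 1.83-fold in the lingual part (log2 fold change -0.87 ± 0.043 (SE), adjusted p = 1.1e-14) and 1.66-fold in the buccal part (log2 fold change -0.74 ± 0.032 (SE), adjusted p = 2.53e-19). Tnn fell 1.73-fold in the lingual part (log2 fold change -0.79 ± 0.055 (SE), adjusted p = 6.61e-12) and 7.87-fold in the buccal part (log2 fold change -2.98 ± 0.049 (SE), adjusted p = 9.91e-31).

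Sparc rose 2.71-fold from Cap-L to Bell-L (log2 fold change 1.44 ± 0.043 (SE), adjusted p = 2.6e-19) and 1.46-fold from Cap-B to Bell-B (log2 fold change 0.54 ± 0.031 (SE), adjusted p = 4.84e-16). Thbs2 rose 1.65-fold and 2.03-fold, and Ccn4 rose 1.46-fold and 1.83-fold. Thbs1 rose 1.87-fold in the lingual part (log2 fold change 0.90 ± 0.046 (SE), adjusted p = 1.45e-14), whereas in the buccal part its log2 fold change was -0.17 ± 0.031. Ccn2 rose 2.56-fold in the buccal part (log2 fold change 1.36 ± 0.053 (SE), adjusted p = 1.41e-20) and 1.43-fold in the lingual part (log2 fold change 0.51 ± 0.047 (SE), adjusted p = 1.71e-09), the latter so near the limit of the call that 7 of 9 fits with 1 library left out passed it, those without Cap-L replicate 1 and without Cap-L replicate 3 giving 0.486 and 0.480. Ccn5 was called higher in the lingual part, 3.58-fold on few reads, in a fit that it entered through the groups where it was higher. Postn and Ccn1 were not called between the stages on either side, at 0.36 ± 0.042 and 0.072 ± 0.03 for Postn and -0.054 ± 0.041 and 0.14 ± 0.029 for Ccn1, lingual before buccal.

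In the undivided mesenchyme 8 of 10 members were called between the stages, 6 higher at the bell stage (Sparc, Thbs1, Thbs2, Ccn1, Ccn2 and Ccn4) and 2 lower (Tnc and Tnn), against 14.5% of all 20940 genes tested (10.3% higher and 4.21% lower). Thbs2 had 45.0, 56.7 and 47.6 CPM in Cap-W and 232, 211 and 197 CPM in Bell-W, 4.26-fold higher (log2 fold change 2.09 ± 0.13 (SE), adjusted p = 0.000231). Sparc had 192, 248 and 238 CPM and 812, 837 and 1114 CPM (log2 fold change 2.02 ± 0.17 (SE), adjusted p = 0.000593). Tnn had 77.8, 84.6 and 81.9 CPM and 20.1, 18.4 and 21.6 CPM, 4.08-fold lower (log2 fold change -2.03 ± 0.11 (SE), adjusted p = 0.000143). These 3 genes did not overlap between the stages, as was so for 36.3% of all genes. Tnc had 903, 776 and 824 CPM in Cap-W and 423, 416 and 355 CPM in Bell-W (log2 fold change -1.07 ± 0.14 (SE), adjusted p = 0.00222), and Postn, which overlapped, had 3168, 2486 and 2193 CPM and 2645, 2406 and 1718 CPM (log2 fold change -0.22 ± 0.23 (SE), adjusted p = 0.566).

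Ccn1 had 212, 167 and 139.6 CPM in Cap-W and 377, 435 and 699 CPM in Bell-W (log2 fold change 1.53 ± 0.26 (SE), adjusted p = 0.00687), with 1 Bell-W library well above the other two. Ccn2 had 19.3, 19.2 and 16.3 CPM and 39.5, 45.4 and 49.3 CPM (log2 fold change 1.29 ± 0.13 (SE), adjusted p = 0.000933). Ccn4 had 18.6, 18.5 and 21.2 CPM and 43.3, 43.2 and 35.8 CPM (log2 fold change 1.06 ± 0.13 (SE), adjusted p = 0.00188), and Thbs1 had 87.3, 105 and 93.2 CPM and 139, 174 and 147 CPM (log2 fold change 0.68 ± 0.12 (SE), adjusted p = 0.00792). All of these were higher in every Bell-W than in every Cap-W library. Ccn5 had 0.265, 0.331 and 0.310 CPM and 0.407, 0.661 and 0.989 CPM, with a difference that was not called (log2 fold change 1.16 ± 0.45 (SE), adjusted p = 0.132), but that was called in the fit of all 24 libraries (1.18, adjusted p = 0.00282 in edgeR). The 12 immediate early genes, which respond within minutes to serum, wounding and dissociation, summed to 1175 to 1540.0 CPM in Cap-W and 2793 to 5232 CPM in Bell-W, and 10 of the 11 tested were called higher in Bell-W, against 10.3% of all genes. The 6 epithelial markers summed to 447 to 1958 CPM in Bell-W, the widest range of any group, and to 297 to 437 CPM in Cap-W. The macrophage markers summed to 27.3 to 31.5 CPM in Cap-W and 109.7 to 139 CPM in Bell-W (6 of 6 called higher), and the endothelial markers to 188 to 196 and 354 to 445 CPM (6 of 6 called higher). With any 1 of the 6 libraries left out, the same 8 members were called. Without Cap-W replicate 1, the library rich in ribosomal RNA, the log2 fold changes of Sparc, Thbs2, Tnn and Ccn1 were 1.92, 2.03, -2.05 and 1.72, and without Bell-W replicate 3 they were 1.86, 2.15, -2.08 and 1.23. The part of these lists and of ribosomal RNA in the changes of the members was not tested.

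The undivided cap-stage mesenchyme did not lie between its parts for every member. For Sparc, Thbs1, Thbs2, Ccn1 and Ccn4, all 3 Cap-W libraries were below all 6 libraries of Cap-L and Cap-B, which held for 17.6% of 23050 genes. In Bell-W, Sparc, Thbs1, Thbs2 and Ccn4 were below both bell-stage parts, against 10.6% of genes. Without Cap-W replicate 1 the same 5 members were below both parts, as 23.2% of genes then were. The 4 of the bell stage were below as well when Bell-W replicates 1 and 2 were left out, against 32.7% of genes, and without Bell-W replicate 3 they were joined by Ccn1, against 21.0%. No member was above both parts at either stage. For Ccn1, the Cap-W values above compare with a lowest value of 501 CPM among the parts. The immediate early genes summed to 3826 to 3964 CPM in Cap-L and 3815 to 3926 CPM in Cap-B, above all Cap-W libraries, and the endothelial markers summed to 188 to 196 CPM in Cap-W, 449.8 to 464 CPM in Cap-L and 401 to 418 CPM in Cap-B. The part of either in this pattern was not tested.

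Most members were higher after culture. After 2 days in vitro 7 of 10 were called in the lingual part, all higher, against 35.4% of all 21425 genes tested (19.6% higher and 15.9% lower), and 8 of 10 in the buccal part, all higher, against 34.5% of all 21992 genes tested (17.9% higher and 16.6% lower). Fresh and cultured libraries did not overlap for 66.9% and 68.6% of all genes, lingual before buccal, and in the buccal part the median log2 fold change was 0.95 over the 10 genes tested here and -0.02 over all genes. Ccn2 rose 4.53-fold on the lingual side (log2 fold change 2.18 ± 0.046 (SE), adjusted p = 9.12e-23) and 9.46-fold on the buccal side (log2 fold change 3.24 ± 0.047 (SE), adjusted p = 4.08e-33), from the lower start given above. Ccn5 rose 16.5-fold (log2 fold change 4.04 ± 0.23 (SE), adjusted p = 4.76e-14) and 4.51-fold (log2 fold change 2.17 ± 0.25 (SE), adjusted p = 3.03e-09) from a handful of reads. Here too Ccn5 entered the fits through groups with more reads than the fresh cap-stage parts. Ccn4 rose 2.47-fold and 1.96-fold. Ccn1 rose 1.61-fold on the buccal side (log2 fold change 0.69 ± 0.029 (SE), adjusted p = 6.12e-20) and was under the limit of the call on the lingual side (log2 fold change 0.37 ± 0.041 (SE), adjusted p = 1.43e-08).

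Sparc rose 3.70-fold (log2 fold change 1.89 ± 0.043 (SE), adjusted p = 5.37e-22) in lingual and 1.91-fold (log2 fold change 0.94 ± 0.031 (SE), adjusted p = 6.45e-23) in buccal culture. Thbs1 rose 2.91-fold and 2.18-fold, and Thbs2 rose 2.59-fold and 2.42-fold. The tenascins differed by side. Tnn rose 5.03-fold in the lingual part (log2 fold change 2.33 ± 0.049 (SE), adjusted p = 8.7e-23), while in the buccal part fresh and cultured libraries overlapped (log2 fold change -0.11 ± 0.038 (SE), adjusted p = 0.0118). Tnc rose 1.63-fold in the buccal part (log2 fold change 0.70 ± 0.031 (SE), adjusted p = 1.53e-19) and was under the limit of the call in the lingual part (log2 fold change 0.41 ± 0.043 (SE), adjusted p = 6e-09). Postn was called on neither side, with log2 fold change -0.36 ± 0.042 in the lingual and log2 fold change 0.10 ± 0.03 in the buccal part.

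**Figure D3:**
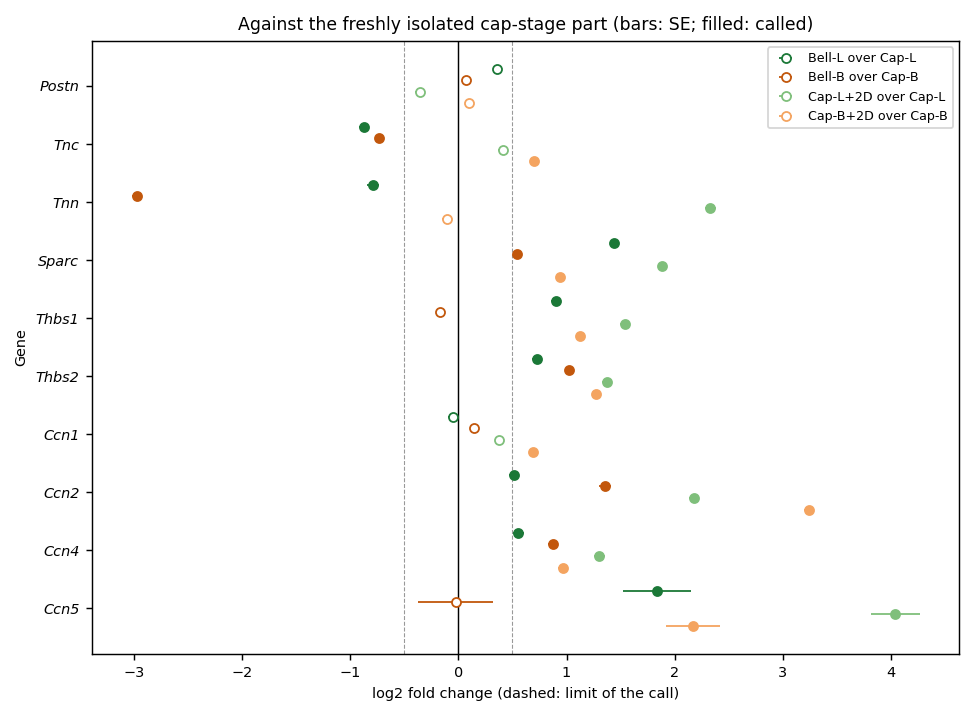
Log2 fold change of each gene at the bell stage (dark) or after culture (light) over the freshly isolated cap-stage part of the same side, with bars for the SE, filled points for called genes and dashed lines at 0.5. Tnn lies at -2.98 for the buccal bell stage and at 2.33 for lingual culture, whereas Sparc, Thbs2, Ccn2 and Ccn4 lie right of 0.5 in all 4 comparisons, which share the cap-stage libraries of each side.

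Cap-stage parts cultured for 2 days were also set against freshly isolated bell-stage parts. On the lingual side 8 of 10 members were called, 7 higher in culture and 1 lower, against 31.2% of all 21425 genes tested (14.4% higher and 16.8% lower). On the buccal side 6 of 10 were called, all higher in culture, against 31.8% of all 21992 genes tested (15.5% higher and 16.3% lower). Tnn stood furthest from the bell-stage tissue, 8.71-fold higher on the lingual side (log2 fold change 3.12 ± 0.052 (SE), adjusted p = 1.4e-24) and 7.29-fold higher on the buccal side (log2 fold change 2.87 ± 0.048 (SE), adjusted p = 3.85e-31). Tnc was 2.44-fold and 2.71-fold higher, Ccn2 3.18-fold and 3.69-fold higher, and Thbs1 1.56-fold and 2.45-fold higher, lingual before buccal. The member that was lower in lingual culture was Postn, by 1.65-fold (log2 fold change -0.72 ± 0.042 (SE), adjusted p = 1.52e-13), whereas on the buccal side its log2 fold change was 0.024 ± 0.03. Sparc was called on neither side (log2 fold change 0.45 ± 0.042 and log2 fold change 0.39 ± 0.031). On these sides cultured and bell-stage libraries did not overlap for 67.2% and 66.6% of all genes.

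Other matricellular genes, a list of 24, moved in the same comparisons as follows. In lingual culture 18 of 23 tested were called higher and 1 lower, and in buccal culture 12 of 24 higher and 2 lower. The median log2 fold change of the list was 0.93 in lingual and 0.56 in buccal culture, where that of all genes was -0.032 and -0.02. Of all genes 19.6% were called higher and 15.9% lower in lingual and 17.9% were called higher and 16.6% lower in buccal culture. Spp1, which encodes osteopontin, rose 69.2-fold in lingual and 140.3-fold in buccal culture, and Mgp, an inhibitor of calcification, rose 17.9-fold and 11.5-fold. The mean of Spp1 went from 2.62 to 183 CPM in the lingual part and from a lower start of 0.732 to 105 CPM in the buccal part. Thbs4, a thrombospondin common in tendon and muscle, rose 7.52-fold from Cap-L to Bell-L, 6.75-fold from Cap-B to Bell-B and 32.2-fold from Cap-W to Bell-W. Between the cap-stage parts 9 of 22 were higher in the buccal part and 6 lower, against 10.4% and 7.10% of all genes. Smoc2, a relative of Sparc, was 3.32-fold higher in Cap-B, while Tnxb, a tenascin of loose connective tissue, was 8.79-fold and Spock1 3.01-fold higher in Cap-L. Tgfbi, the closest relative of periostin, was 3.74-fold higher in Bell-L than in Bell-B and 3.26-fold higher in the cultured lingual than the cultured buccal part.

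Receptors of these proteins made a list of 17. Of 16 tested, 2 were called higher and 2 lower in the buccal cap-stage part, which is near the 10.4% and 7.10% of all genes. There the integrin subunit Itgb8 was 1.62-fold higher and Itgb3 1.51-fold lower. In lingual culture 9 of 17 were higher and 1 lower, against 19.6% and 15.9% of all genes, and in buccal culture 5 of 17 higher and 1 lower, against 17.9% and 16.6%. The medians of the list in lingual and buccal culture were 0.55 and 0.20 on the log2 scale. Cd36, a thrombospondin receptor that macrophages and endothelial cells also express, rose 10.3-fold and 9.47-fold in culture. The 6 macrophage markers summed to 53.8 to 58.1 CPM in Cap-L and 213 to 228 CPM in Cap-L+2D, and to 53.9 to 60.3 CPM in Cap-B and 144 to 154 CPM in Cap-B+2D, and their part in the rise of Cd36 was not tested.

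The matrix partners were 16 genes of collagens, fibronectin, lysyl oxidases, proteoglycans and the like. At the cap stage 7 of 16 were higher in the buccal part, against 10.4% of all genes, with Lox, which cross-links collagen, 5.24-fold higher and the proteoglycan Dcn 4.45-fold higher. From Cap-L to Bell-L 11 of 16 rose, against 14.2% of all genes, and in lingual culture 15 of 16, against 19.6%, Lox by 6.19-fold and Col1a1 by 3.84-fold. In buccal culture 8 of 16 rose, against 17.9%, Loxl1 by 2.97-fold and Col1a1 by 2.22-fold. The medians of the list were 1.10 and 0.49 on the log2 scale in lingual and buccal culture. At the bell stage 3 of 16 were lower in the buccal part, against 6.88% of all genes, Col12a1 by 1.75-fold and Fn1 by 1.45-fold.

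Other genes used as read-outs of YAP and TEAD, a list of 20 that holds neither Ccn1 nor Ccn2, were tested beside them. In lingual culture 13 of 20 were called higher, against 19.6% of all genes, and in buccal culture 10 of 20 were higher and 1 lower, against 17.9% and 16.6%. The medians of the list in lingual and buccal culture were 0.83 and 0.65 on the log2 scale. F3, which encodes tissue factor, rose 6.59-fold and 9.18-fold. Ankrd1, which is also a gene of striated muscle, rose 20.9-fold in buccal culture, where the muscle markers were highest. On the lingual side Ankrd1 was at or under the limit of 3 reads in all 3 Cap-L libraries and had a mean of 1.17 CPM in Cap-L+2D. The part of muscle cells in its rise was not tested. Between the cap-stage parts 3 of 20 were higher in the buccal part and 3 lower, Tgfb2 being 4.32-fold higher and Foxf2 3.05-fold lower there. Over all genes those shares were 10.4% and 7.10%.

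Immediate early genes rose with culture as well. All 12 were called higher in lingual culture, against 19.6% of all genes, and 8 of 12 in buccal culture, against 17.9%, Atf3 by 9.57-fold and 4.65-fold, and the 12 summed to 9121 to 9311 CPM in Cap-L+2D and 6063 to 6326 CPM in Cap-B+2D. Smooth muscle and pericyte markers summed to 938 to 999 CPM in Cap-L+2D and 1577 to 1709 CPM in Cap-B+2D, against 458 to 473 and 479 to 492 CPM in the fresh parts. Of these 6 markers, 4 were called higher and 1 lower in lingual culture, and 2 higher and 1 lower in buccal culture. Acta2 rose from a mean of 11.2 to 426 CPM in lingual and from 83.6 to 1104 CPM in buccal culture. Rgs5 fell from 55.2 to 24.0 CPM and from 17.7 to 5.65 CPM, lingual before buccal. The osteoblast markers summed to 975 to 985 CPM in Cap-L and 2184 to 2215 CPM in Cap-L+2D, but to 446 to 464 CPM in Cap-B and 475 to 485 CPM in Cap-B+2D. Single osteoblast markers moved in both directions, with 4 of 6 called higher and 1 lower in lingual culture, and 3 higher and 2 lower in buccal culture. Ibsp rose from a mean of 120 to 1191 CPM and from 35.6 to 121 CPM, lingual before buccal. Runx2 fell from 445 to 294 CPM and from 242 to 125 CPM. The 5 erythroid markers, by contrast, summed to 17.1 to 21.1 CPM in Cap-L+2D against 1538 to 1889.8 CPM in Cap-L. All markers of these 3 lists but the osteoblast marker Bglap in Cap-B were over the limit of 3 reads in at least 1 library of each of these 4 groups, and their part in the rise of Ccn2, Sparc, Tnn and the other members was not tested.

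**Figure D4:**
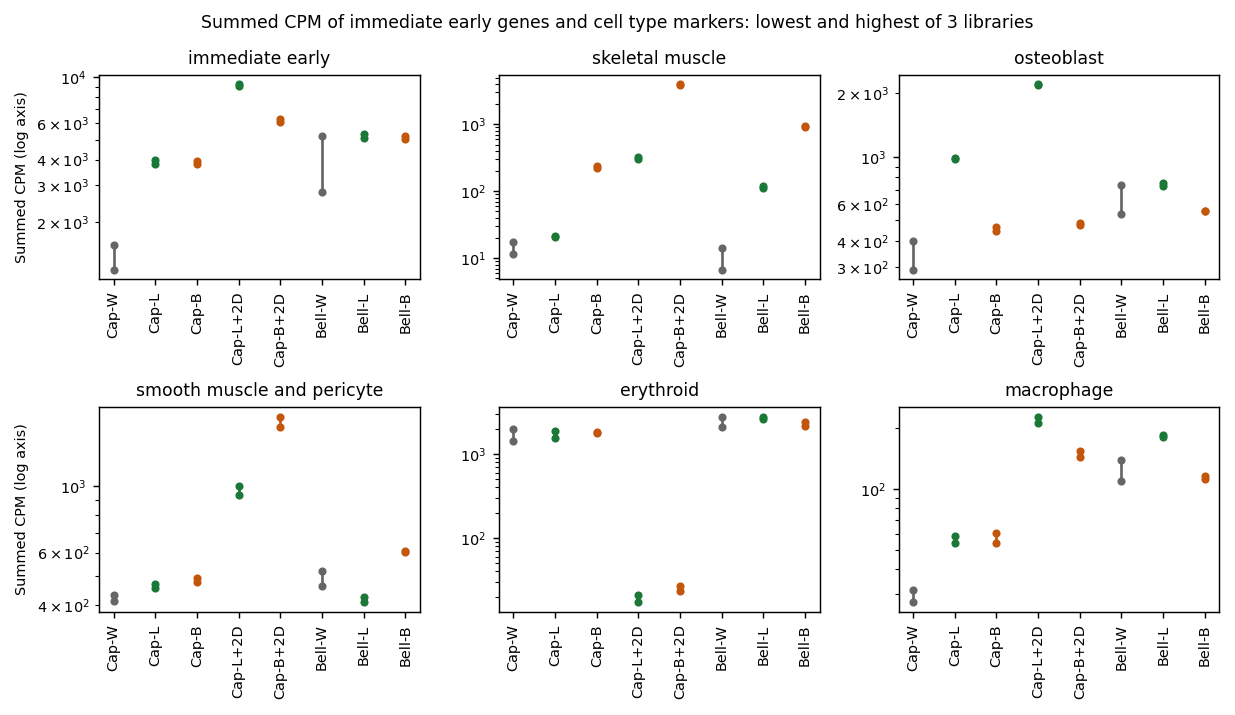
Summed CPM of the 12 immediate early genes and of 5 marker lists on log axes, as the lowest and the highest of the 3 libraries of each group, grey for undivided, green for lingual and orange for buccal mesenchyme. Immediate early genes are lowest in Cap-W, skeletal muscle markers are highest in Cap-B+2D, and erythroid markers are lowest in both cultured groups.

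Genes with the pattern closest to each member over the 24 libraries were found by the root mean square difference of log2 CPM after each gene was centred on its own mean. The 24 libraries share the 8 groups, and the measure is a description. Col1a1, a main collagen of bone and dentin, was nearest to Sparc, at 0.165, followed by Col6a1 at 0.227, and Thbs2 was the nearest member, at 0.282, with 6 of all genes closer. Nearest to Ccn1 was Egr1, an immediate early transcription factor, at 0.229, followed by the annexin Anxa6 at 0.243 and by Ier2, also an immediate early gene, at 0.245. Nearest to Thbs1 was Ccdc80 at 0.189, to Thbs2 B3gnt9 at 0.216, and to Ccn4 Fam114a1 at 0.166 with Col3a1 second at 0.210. The lingual-high genes had other neighbours. For Postn they were Cyria at 0.242 and Sema3a, a guidance cue, at 0.270, and for Tnc they were Dact1, a modulator of Wnt signalling, at 0.341 and Bmf at 0.357. Postn and Tnc were each other's nearest member, at 0.674, but 10513 other genes were closer to Postn than Tnc was. The pattern of Tnn was nearest to Hcn4 at 0.628, and those of Ccn2 and Ccn5 were nearest to Phlda1 at 0.357 and Apobec1 at 0.435. The measure grows with the spread of a gene, so its values are not comparable between members. Over the 24 libraries the SD of log2 CPM was 1.31 for Tnn, 0.529 for Postn and 0.770 for Tnc.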

How the data were processed

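Per the file headers, the authors counted read pairs per gene over exons with featureCounts 2.0.0 and the Ensembl annotation of GRCm39 (release 107), naming no strand, and deposited those raw counts as 1 table of 24 libraries and 56748 genes. The submitters' processing notes list FastQC 0.12.1, Trimmomatic 0.39, Bowtie 1.2.3, Subread 2.0.3 and DESeq2 1.40.2, while the study's methods name STAR. The labels and the methods also name different library kits. Without strand, reads of genes that overlap on opposite strands cannot be told apart.

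Symbols came from GENCODE M39, with 56017 identifiers matched. Groups came from the sample labels, and 3 libraries made a group. Members and lists were chosen with earlier results of these data known. From the counts, edgeR 4.0.16 (R 4.3.3) gave quasi-likelihood tests after filterByExpr and TMM scaling within each comparison, with Benjamini-Hochberg adjustment over all genes tested. Sides within a stage or culture and the undivided mesenchyme were fitted on 6 libraries, the groups of 1 side on 9 and the interactions on 12. SE is the fold change over the root of F. Printed CPM were TMM-scaled over all 24 libraries. The limit of 3 reads covers counting error only. Scripts were tested on simulated data with known changes. Other genes are named by rule: up to 3 per direction from the list of other matricellular genes and up to 2 from each other list among called genes with a mean log2 CPM of at least 1, and the 3 nearest patterns among genes with at least 2. Replicates with the same number showed no correlation over 0.1 in all 3 pairs of any comparison. No library repeated another within sampling noise, but some came near it. The chi-square per gene was 1.37, 1.58 and 1.59 between the Cap-B libraries and 1.60 between Bell-L replicates 2 and 3. Alternatives were DESeq2 1.42.0, other scalings and filters, all libraries in 1 fit, a replicate block and leaving out each library. The upstream window of 1 member is not reported here.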

Additional observations from a re-analysis of the deposited data

Results flagged for a closer look

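The buccal over lingual log2 fold change of 9 members differed between the bell and the cap stage by an interaction term, and that of 9 members differed between cultured and fresh cap-stage parts, with adjusted p under 0.05 in edgeR. All genes gave such a difference in 32.5% of cases for stage and 35.5% for culture. For the tenascins and periostin, the difference of Tnn was -2.20 for stage and -2.45 for culture, that of Postn -0.30 and 0.44, and that of Tnc 0.28 for culture. In the fit of all 24 libraries the differences of Postn and of Ccn1 were not called, with an adjusted p of 0.389 and 0.618 for stage and of 0.0636 and 0.324 for culture. Sparc had -0.91 for stage and -0.96 for culture, Thbs1 -1.08 and -0.42, and Thbs2 0.29 for stage.

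Among the CCN genes, Ccn2 had 0.83 for stage and 1.05 for culture, Ccn1 0.18 and 0.30, Ccn4 0.31 and -0.35, and Ccn5 -1.88 and -1.88, the last on few reads. Ccn5 was too low to be tested between Cap-L and Cap-B and entered both fits through the other groups. Positive values are shifts toward the buccal side. Both interactions use the libraries of Cap-L and Cap-B. The skeletal muscle markers, which were higher in every buccal than in every lingual library of the same setting, changed along with stage and culture, and their part in these values was not tested.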

How the results depend on the processing

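Of 2147 repeats of the 119 member results under the alternatives, 2100 kept their direction and their side of the threshold, 8 lost the call, 32 gained it and 7 turned direction. Without the limit on the fold, 9 members instead of 4 were called in Bell-B over Bell-L and 10 instead of 5 in Cap-B+2D over Cap-L+2D, where 37.0% and 54.6% of all genes were called by that rule. With the 100 most abundant genes left out, 3 members were called in Cap-B+2D over Cap-L+2D, where Postn, Tnc and Sparc are among the genes removed and so not tested. The turns were all of values near 0 that were never called: Ccn4 in Cap-B over Cap-L, at 0.0049 with at least 10 counts in every library and between -0.052 and 0.022 with 1 library left out, Ccn5 in Bell-B over Cap-B, between -0.10 and 0.060 with 1 library left out, and Postn in Cap-B+2D over Bell-B, at -0.026 with upper quartile scaling.

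Leaving out 1 library in turn kept the number of members called at 6 for Cap-B over Cap-L, 5 for Cap-B+2D over Cap-L+2D, 8 for Bell-W over Cap-W, 7 for Cap-L+2D over Cap-L, 8 for Cap-L+2D over Bell-L, 6 for Bell-B over Cap-B, 8 for Cap-B+2D over Cap-B, 6 for Cap-B+2D over Bell-B and 9 for the interaction with culture, and it ranged from 4 to 5 for Bell-B over Bell-L, from 7 to 8 for Bell-L over Cap-L and from 9 to 10 for the interaction with stage. In the fit of all 24 libraries the interactions of Postn and Ccn1 with stage (-0.271 and 0.212) and with culture (0.480 and 0.337) were not called, and Ccn5 in Bell-W over Cap-W was called (1.18), while the interactions of Tnc with stage were called under DESeq2 (0.139), upper quartile scaling (0.150), no filter on low counts (0.162), without the 100 most abundant genes (0.155) and without Cap-L replicate 2 (0.171). The cause was not tested. The counts of members below both parts without single undivided libraries were added after the data were seen.

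The replicate number from the labels, added as a replicate block, changed no call of a member: it gave 6 in Cap-B over Cap-L, 4 in Bell-B over Bell-L, 5 in Cap-B+2D over Cap-L+2D, 8 in Bell-W over Cap-W, and 9 in either interaction. The numbers did not pair the samples by correlation, so that samples of a number share only that number. Depth limits Ccn5 most, since it had few reads in the fresh groups.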
